A study of Drosophila melanogaster with 4 samples.

Results

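Isolated narrow clusters of H4K16ac on the X chromosome of Drosophila melanogaster are described here. H4K16ac is histone H4 acetylated at one lysine of its tail. A cluster is a region that the authors called as enriched by chromatin immunoprecipitation and sequencing (ChIP-seq). The members were taken from the authors' combined list of both replicates: X clusters under 10 kb wide that lay over 5 kb, edge to edge, from the nearest X cluster of 10 kb or more (called wide here). This rule found 950 members, which were 63.8% of the 1490 X clusters, 74.8% of the 1270 X clusters under 10 kb, and part of 5728 clusters in all. The comparison groups were 4058 clusters under 10 kb on 4 autosome arms, 2L with 2R and 3L with 3R, and the 320 narrow X clusters within 5 kb of 1 of the 220 wide ones. The members were thus chosen by measured values, namely width, distance and position in the combined list, and the combined list comes from the same 2 ChIP samples as the replicate lists. All values below are therefore descriptions, without a test.

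The chromatin came from head nuclei of flies of the wild-type strain Oregon-R, raised in population cages and labelled as mixed adults, with no sex, treatment or further allele given. The series holds 2 ChIP samples and 2 input samples, 1 input for each ChIP, and only lists of the ChIP group were used. The labels do not say whether the replicates came from separate collections of flies, so differences between them may be technical. Read numbers are not in the lists, so depth is unknown and no counting error can be given for a cluster.

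As background, H4K16ac is laid down by the acetyltransferase MOF and loosens the packing of nucleosomes. In male flies MOF acts within the MSL complex, which carries the roX RNAs, first binds a set of high-affinity entry sites on the X, and from there reaches active genes along the chromosome. In both sexes MOF also acts within the NSL complex, mostly at promoters of active genes on all chromosomes. Wide X clusters and narrow clusters are thus both known forms of this mark. Coordinates below are on FlyBase release 5, and no gene or sequence was assigned to a cluster because no genome or annotation of that build was used here.

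Most of the isolated narrow X clusters were seen in the combined list alone. An overlap of 1 bp with a cluster of a replicate counted as found. Of the 950, 158 (16.6%) were found in both replicates, 134 (14.1%) in replicate 1 only, 127 (13.4%) in replicate 2 only and 531 (55.9%) in neither. Over all 5728 combined clusters, 55.2% were found in both replicates and 25.9% in neither, and over those under 10 kb the shares were 53.4% and 26.9%. Of the narrow autosome clusters, 62.9% were found in both and 19.6% in neither. The narrow X clusters near a wide one lay between, at 42.5% in both and 30.3% in neither, and all 220 wide X clusters were found in both. The isolated clusters thus had the lowest share found in both among these groups.

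Each replicate gave the same picture of low recovery. Replicate 1 held 292 of the isolated clusters (30.7%) and replicate 2 held 285 (30.0%), with a mean of 30.4% ± 0.521 (SD, n = 2). Over all combined clusters these shares were 61.6% in replicate 1 and 67.8% in replicate 2. Narrow autosome clusters were found to 67.4% in replicate 1 and 75.9% in replicate 2, a mean of 71.6% ± 6.05 (SD, n = 2). The isolated X clusters lay 36.6 percentage points below the autosome clusters in replicate 1 and 45.9 points below in replicate 2, more than the spread between the replicates. The members found in 1 replicate were also less often shared with the other: 54.1% of those found in replicate 1 were in replicate 2 and 55.4% of those found in replicate 2 were in replicate 1, against 93.4% and 82.9% of the autosome clusters.

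Width went with recovery, and the isolated clusters were mostly narrow. Their median width was 1688 bp (quartiles 1229 and 2575 bp), against 2095 bp (1682 and 3001 bp) on the autosomes and 2450 bp (1651 and 4331 bp) near wide X clusters. The 531 members found in neither replicate had a median width of 1298 bp and the 158 found in both one of 4418 bp. For comparison, autosome clusters found in both replicates had a median width of 2709 bp. The order of the medians was therefore reversed among clusters found in both: the ratio of the isolated to the autosome median was 0.806 over all clusters and 1.63 over those found in both. The members found in both held 36.0% of the 2121 kb that the isolated clusters covered, and those found in neither held 36.6%.

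At a given width the isolated clusters were still found in both replicates less often than autosome clusters, except in the narrowest class, where none of either group was. Between 1000 and 1500 bp, 0 of 404 isolated and 0 of 754 autosome clusters were found in both replicates. Between 1500 and 2000 bp the counts were 5 of 212 isolated clusters (2.36%) and 443 of 987 autosome clusters (44.9%). From 2000 to 3000 bp they were 24 of 151 (15.9%) and 1141 of 1300 (87.8%). From 3000 to 5000 bp they were 71 of 120 (59.2%) and 759 of 806 (94.2%). Above 5000 bp the shares came close, with 58 of 63 (92.1%) and 210 of 211 (99.5%). Weighted to the widths of the isolated clusters, the autosome share found in both was 42.5%, against 16.6%. This weighting was chosen after the data were seen.

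**Figure D1:**
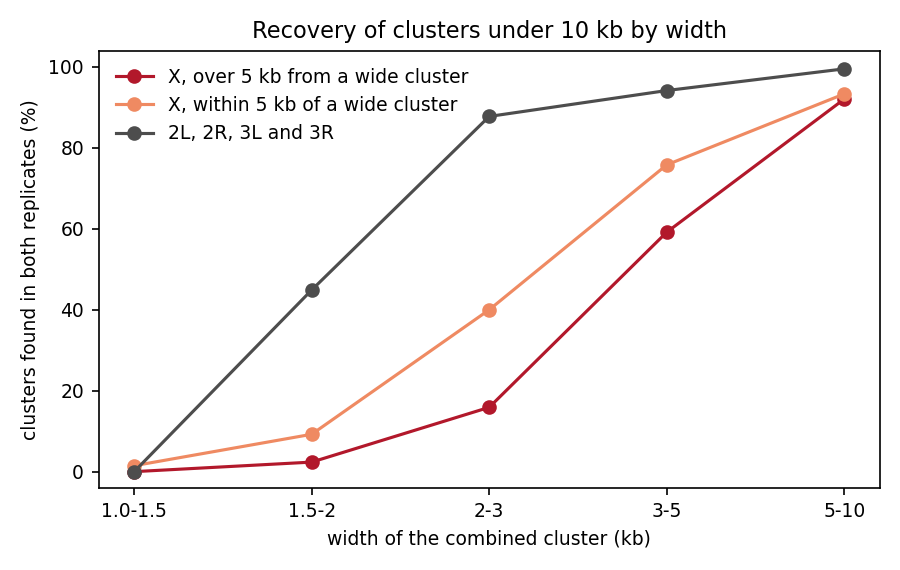
Recovery of combined clusters in both replicates (vertical axis, percent of clusters) in 5 classes of width (horizontal axis, kb), for isolated narrow X clusters, narrow X clusters near a wide one and narrow autosome clusters. Points are shares of all clusters in a class; between 2000 and 3000 bp the isolated clusters stand at 15.9% and the autosome clusters at 87.8%, while above 5000 bp both exceed 90%.

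The narrowest calls were the property of the combined list. No cluster in either replicate list was narrower than 1301 bp, while the combined list went down to 1001 bp. Of the isolated clusters, 287 (30.2%) were under 1301 bp, against 482 of the autosome clusters (11.9%). Of these, 93.0% and 91.3% were found in neither replicate. Without them, 23.8% of 663 isolated clusters and 71.4% of 3576 autosome clusters were found in both, again after the data were seen.

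The authors' scores of the isolated clusters were higher than those of autosome clusters and fell in a narrow range. The scale of the score is not stated, so scores are given as deposited and no ratios of them were formed. The median score was 0.535 (quartiles 0.482 and 0.592) for isolated clusters and 0.408 (0.307 and 0.594) for autosome clusters, a difference of 0.127. The range between the quartiles was 0.110 and 0.287, respectively. Scores from 0.4 up to 0.7 were held by 831 isolated clusters (87.5%) but by 34.9% of the autosome clusters. The lower end differed most from the autosomes: 51 isolated clusters (5.37%) and 1960 autosome clusters (48.3%) scored under 0.4, and the lowest scores were 0.200 and 0.0134. The narrow X clusters near a wide one shared this: their median score was 0.566, 73.1% scored from 0.4 up to 0.7 and 8.75% under 0.4. At the upper end, 16 isolated clusters (1.68%) and 146 autosome clusters (3.60%) scored 1 or more. No source used here states the calling thresholds, so how far a higher lowest score on the X raises its median was not tested.

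Score and width were tied on the autosomes and much less so among the isolated clusters. Across clusters, Spearman's rho of width and score was 0.236 over the 950 isolated clusters and 0.674 over the 4058 autosome clusters; clusters of 1 list share their libraries and are not replicates. The median score of isolated clusters was 0.528 between 1000 and 1500 bp, 0.492 between 1500 and 2000 bp, 0.553 from 2000 to 3000 bp, 0.577 from 3000 to 5000 bp and 0.673 above 5000 bp. On the autosomes the same classes had medians of 0.328, 0.274, 0.505, 0.589 and 0.721. Median scores of isolated X clusters were thus above those of autosome clusters up to 3000 bp and below them in both wider classes. Under 2000 bp, 355 of 616 isolated clusters (57.6%) and 25 of 1741 autosome clusters (1.44%) scored 0.5 or more.

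**Figure D2:**
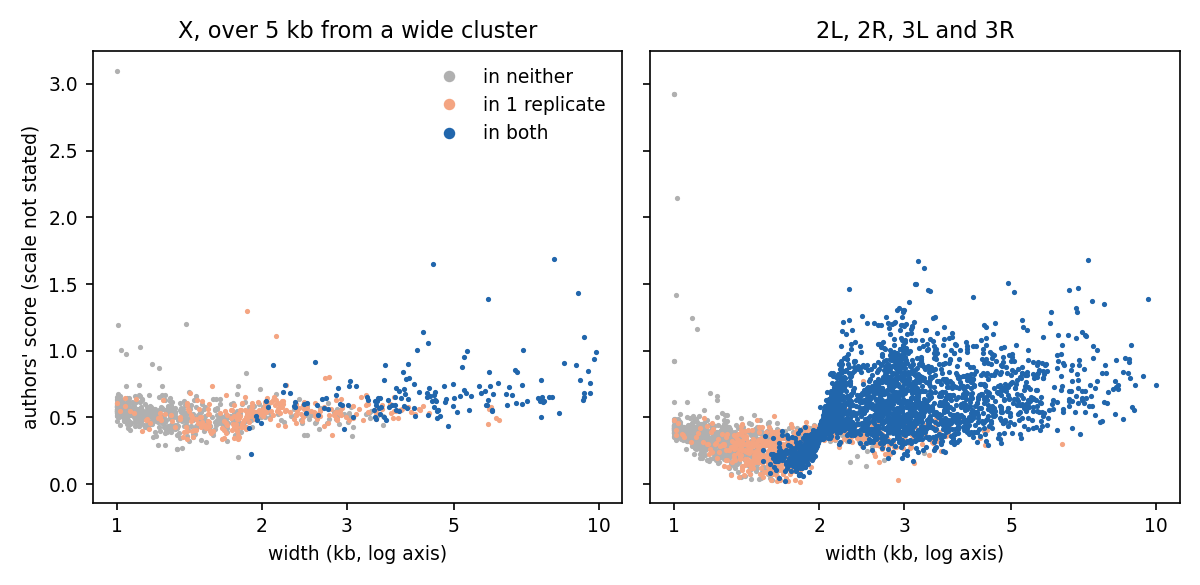
The authors' score (vertical axis, scale not stated) against width (horizontal axis, kb, log scale) for each isolated narrow X cluster (left) and each narrow autosome cluster (right), coloured by whether it was found in both, in 1 or in neither replicate. Isolated clusters form a flat band around their median of 0.535, while autosome scores step up near 2 kb, where most clusters become found in both.

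At equal scores, too, the isolated clusters were found less often than those on the autosomes. Between scores of 0.5 and 0.6, which held 428 isolated clusters, 45 of them (10.5%) were found in both replicates, against 393 of 406 autosome clusters (96.8%). Between 0.6 and 0.8 the shares were 44.9% of 176 and 98.7% of 553. Grouping by width and score at once left the gap in place at middle widths. From 2000 to 5000 bp with scores of 0.5 to 0.6, 35 of 145 isolated clusters (24.1%), 21 of 50 X clusters near a wide one (42.0%) and 361 of 362 autosome clusters (99.7%) were found in both. In the same widths with scores of 0.6 or more these shares were 67.9%, 80.3% and 99.8%. Under 2000 bp, 0 of 83 isolated clusters and 0 of 13 autosome clusters with such scores were found in both. From 5000 to 10000 bp with such scores there was no gap to the autosomes. Found in both there were 49 of 49 isolated clusters, 50 of 52 X clusters near a wide one and 155 of 155 autosome clusters.

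The isolated clusters, set apart from wide domains by rule, had nearer neighbours than autosome clusters. The median gap to the nearest cluster was 716 bp (quartiles 214 and 2075 bp), against 2169 bp (740 and 5678 bp) on the autosomes and 279 bp for narrow X clusters near a wide one. A gap under 500 bp was seen for 406 isolated clusters (42.7%) and 18.6% of the autosome clusters, and a gap under 100 bp for 105 (11.1%) and 4.51%. At the other extreme, 40 isolated clusters had no other within 10 kb.

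**Figure D3:**
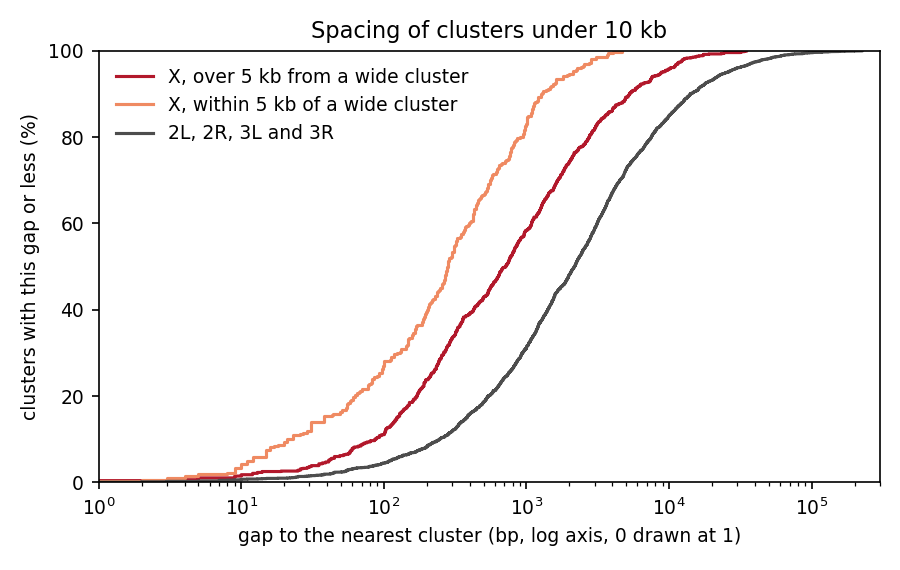
Cumulative share of clusters (vertical axis, percent) by the gap to the nearest cluster of the combined list (horizontal axis, bp, log scale, gaps of 0 drawn at 1), for the 3 groups of clusters under 10 kb. Isolated X clusters, with a median gap of 716 bp, lie to the left of autosome clusters, at 2169 bp, and to the right of X clusters near a wide one, at 279 bp.

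The part of the X that lay over 5 kb from every wide cluster measured 8.48 Mb, or 37.8% of the arm. The isolated clusters covered 25.0% of it, at 112 clusters per Mb, while all autosome clusters covered 10.6% of their arms, with 42.0 narrow ones per Mb. The length is set by the mark itself, since wide clusters were taken out of it. Within this same length the replicate lists were sparser. Replicate 1 held 353 clusters there (41.6 per Mb, 10.7% covered) and replicate 2 held 356 (42.0 per Mb, 10.2% covered). Their autosome arms held 30.0 and 33.1 narrow clusters per Mb and were covered to 7.11% and 8.34%. The number per Mb was thus 2.67 times that of the autosomes in the combined list, but 1.39 times in replicate 1 and 1.27 times in replicate 2.

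In this length the replicates overlapped each other less than on the autosomes. Of the clusters there, 188 of 353 (53.3%) in replicate 1 and 197 of 356 (55.3%) in replicate 2 overlapped the other replicate. Of narrow autosome clusters, 93.3% in replicate 1 and 82.5% in replicate 2 did. The length covered in both lists was 0.386 of the length covered in either, against 0.736 on the autosomes. The sets differ, since the autosome value keeps clusters of every width and the X value leaves out wide ones. Over the whole X, wide clusters included, it was 0.875. Among X clusters over 5 kb from a wide one, those shared by both replicates were wider, with medians of 2233 and 2127 bp against 1566 and 1519 bp for those of 1 replicate. They scored higher too, with medians of 0.836 in replicate 1 and 0.756 in replicate 2, against 0.787 and 0.70.

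The same rule was also applied within each replicate list by itself. It chose 599 clusters in replicate 1 and 609 in replicate 2, a mean of 604 ± 7.07 (SD, n = 2). Their median width was 1950 and 1943 bp, against 2036 and 2117 bp for narrow autosome clusters (ratio 0.938 ± 0.0283, SD, n = 2). Their median score exceeded that of the autosomes by 0.277 in replicate 1 and 0.173 in replicate 2 (0.225 ± 0.0736, SD, n = 2). The ratio of median gaps was 0.482 and 0.512 (0.497 ± 0.0212, SD, n = 2). These 3 directions were those of the combined list in both replicates, and the width ratio lay nearer to 1. Overlap with the other replicate was 64.9% and 66.0% for the X clusters and 93.3% and 82.5% for the autosome clusters. The clusters chosen in this way were in part others: 144 in replicate 1 and 162 in replicate 2 overlapped a wide cluster of the combined list, and 320 and 327 overlapped an isolated one.

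Recovery was lower at greater distance from the wide clusters. The median distance was 21.4 kb (quartiles 12.1 and 35.7 kb). Of the 170 members between 5 and 10 kb from a wide cluster, 22.9% were found in both replicates and 44.1% in neither. Of the 278 between 10 and 20 kb these shares were 18.0% and 55.4%. They were 15.0% and 57.9% for the 359 between 20 and 50 kb, and 10.5% and 65.7% for the 143 beyond 50 kb. Median width was also lower with distance, from 1883 bp in the nearest class to 1412 bp in the farthest, while the median score stayed between 0.521 and 0.543. The median gap was 513 bp in the nearest class and 1837 bp in the farthest. Within a class of width the trend of the share found in both was not uniform. From 2000 to 3000 bp, 21.5% of the 79 members up to 20 kb away and 9.72% of the 72 farther ones were found in both, and from 3000 to 5000 bp the shares were 63.1% of 65 and 54.5% of 55. From 1500 to 2000 bp the shares were 1.06% of 94 and 3.39% of 118, and above 5000 bp they were 90.9% of 33 and 93.3% of 30. The share found in neither was higher for the farther members in each class up to 5000 bp. From 1000 to 1500 bp it was 85.3% and 90.3%, and from 1500 to 2000 bp 56.4% and 57.6%. From 2000 to 3000 bp it was 24.1% and 29.2%, and from 3000 to 5000 bp 9.23% and 14.5%. Above 5000 bp it was 0 at either distance.

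**Figure D4:**
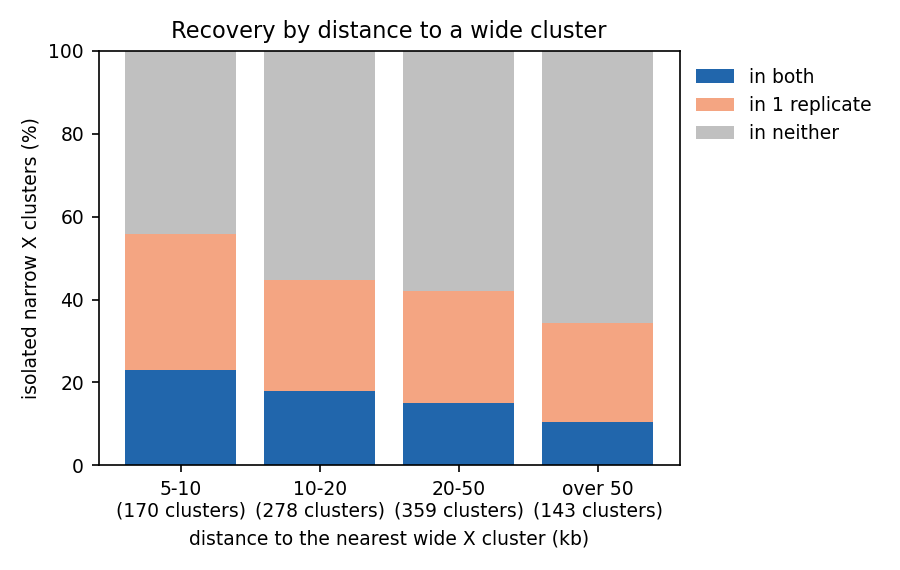
Share of the isolated narrow X clusters (vertical axis, percent) found in both, in 1 or in neither replicate, in 4 classes of distance to the nearest wide X cluster (horizontal axis, kb, with the number of clusters). The share found in both goes from 22.9% in the nearest class to 10.5% in the farthest.

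At the 5 kb limit of the rule, the 3 members nearest to a wide cluster were 5012, 5028 and 5029 bp away, with widths of 2441, 3458 and 2016 bp and scores of 0.365, 0.566 and 0.518. The 3 narrow X clusters just inside 5 kb were 4999, 4962 and 4955 bp away, with widths of 4792, 4722 and 1017 bp and scores of 0.620, 0.659 and 0.580. The 3 narrowest wide clusters measured 10097, 10128 and 10245 bp, with scores of 0.969, 0.602 and 0.621.

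Isolated clusters were spread over the whole arm in groups between wide clusters. Of the 220 stretches before or between wide clusters, 95 held at least 1 member, with a median of 9 and a highest count of 32. Between wide clusters a member needs over 5 kb on either side, so stretches too short for this were empty by rule. There were 44 stretches with 10 members or more, which held 718 of the 950. In 67 stretches at least 1 member was found in both replicates, and in 28 none was. The stretch with most members ran from 20135469 to 20252795. Its 32 members covered 44.4% of 117327 bp, yet 0 of them were found in both replicates and 24 in neither. The next ran from 11937176 to 12207975, with 30 members, of which 2 were found in both and 18 in neither. In the next, from 13323921 to 13452233, 2 of 27 were found in both and 15 in neither. Over all 950 members these shares were 16.6% and 55.9%.

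In bins of 1 Mb along the X the number of members ranged from 12 (16 to 17 Mb) to 75 (10 to 11 Mb), leaving out the short last bin. Set against the length over 5 kb from a wide cluster, the bin from 10 to 11 Mb was again highest, at 243 per Mb, and the bin from 21 to 22 Mb lowest of the full bins, at 48.9 per Mb. The share found in both replicates was highest between 19 and 20 Mb, at 39.0% of 41 members, and lowest between 8 and 9 Mb, at 2.50% of 40. The former bin also had the highest median score, 0.593, and a median width of 2033 bp.

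Of the 5 members of highest score, 4 were found in both replicates. Among clusters scoring 0.8 or more, 67.6% of the 37 members and 98.2% of the 441 autosome clusters were found in both. The highest score of all, 3.09, belonged to X:22013710-22014710, a region of 1001 bp, the narrowest width in the list. It was found in neither replicate, and the nearest replicate clusters lay 61334 and 61296 bp away. The other 4 were X:3460181-3468264 (8084 bp), X:13889679-13894200 (4522 bp), X:90272-99309 (9038 bp) and X:3395419-3401294 (5876 bp). The first of them had a combined score of 1.69, with 1.95 in replicate 1 and 1.75 in replicate 2. The cluster from 13889679 scored 1.65, 1.58 and 1.77, and it lay 92.7 kb from the nearest wide cluster. The cluster from 90272 scored 1.43, 1.55 and 1.47. The cluster from 3395419 scored 1.38, 1.45 and 1.40. Of the length of each of these 4, 77.6% to 97.8% was covered in each replicate. Further high scores without a replicate cluster were seen at X:20179827-20181219 (1.20, 1393 bp) and X:10445654-10446660 (1.20, 1007 bp).

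The 5 widest members were all found in both replicates. Above 5000 bp this held for 92.1% of the 63 members and 99.5% of the 211 autosome clusters. X:19036636-19046487, at 9852 bp, corresponded to 2 clusters in each replicate, the longest of which measured 5428 bp (replicate 1) and 6858 bp (replicate 2). X:18600115-18609899, at 9785 bp, was 1 cluster in each, of 9649 and 7605 bp. X:13909350-13918931 (9582 bp), X:1513162-1522729 (9568 bp) and X:2674908-2684377 (9470 bp) followed. Of the first of these, 41.5% was covered in replicate 1 and 48.1% in replicate 2. No isolated cluster overlapped a cluster of 10 kb or more in either replicate.

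Of the 5 members farthest from a wide cluster, 3 were found in neither replicate, against 55.9% of all 950 and 65.7% of the 143 beyond 50 kb. The pair X:22226622-22228047 and X:22228053-22231709, 5 bp apart from each other, lay 150372 and 146710 bp from the nearest wide cluster. The latter was found in both replicates. The former was touched by replicate 1 only, which covered 0.912% of it. X:14308454-14309454, 135094 bp away, was found in neither, and the nearest replicate cluster was 57149 bp from it. X:12071517-12073159 and X:12073700-12074718, at 134341 and 133257 bp, were found in neither replicate, although a cluster of replicate 2 lay 748 bp from the latter.

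Where an isolated cluster matched 1 cluster in each replicate, and those matched no other, the replicate scores were related. There were 103 such members. Their scores ran from 0.343 over a median of 0.809 to 1.95 in replicate 1, and from 0.414 over a median of 0.745 to 1.77 in replicate 2. Over the 103, Pearson's r of the scores was 0.804, with a Spearman's rho of 0.599; they were selected for being found in both, and 1 pair of libraries gave all of them. The combined score lay below both replicate scores for 88 of the 103, and the lists were not brought to 1 scale. Combined regions were wider, with a median of 3722 bp against 2013 and 1985 bp.

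**Figure D5:**
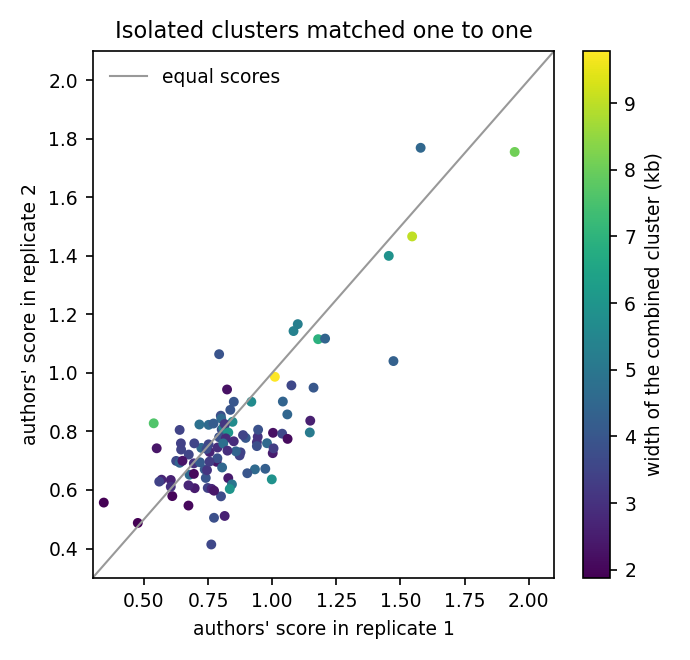
The authors' score in replicate 2 (vertical axis) against that in replicate 1 (horizontal axis) for the 103 isolated clusters matched one to one, with colour for the width of the combined cluster in kb and a line of equal scores. Most points lie between 0.5 and 1.2 on both axes, and 3 members exceed 1.4 in both.

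Members found in neither replicate lay within 500 bp of a replicate cluster about as often as autosome clusters found in neither did. Of the 531, 66 (12.4%) had a replicate cluster within 500 bp and 330 (62.1%) within 5000 bp, and the median distance was 3164 bp. For the 796 autosome clusters found in neither these values were 12.8%, 54.9% and 4161 bp. For the 97 narrow X clusters near a wide one found in neither they were 35.1%, 96.9% and 974 bp.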

How the data were processed

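A set of 3 lists of regions were used, 1 for each ChIP replicate and 1 combined list; the input samples had no list of their own here. Per the submitters' processing notes, alignment used Bowtie 0.12.7. For the region caller, its thresholds, the use of the input and the making of the combined list, the method is not stated in any source used here. Coordinates are 1-based on FlyBase release 5, per the file headers. The authors gave every region a score, which was deposited without its scale. Depleted regions were left out.

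Members followed the rule given in the report, distance being the number of bases between edges. Classes, gaps and overlaps were computed with Python 3.11.15, numpy 2.4.6, pandas 2.3.3 and scipy 1.17.1, after being tested on simulated data, and drawn with matplotlib 3.10.9. Replicate values are given as mean ± SD (n = 2). No test was made. Clusters named by position were those of highest score, greatest width, greatest distance from a wide cluster, nearest the limits of the rule, or highest score in neither replicate, and the stretches with most members. The members, lists and rules were chosen with earlier results of these data known. Alternatives changed the distance, width, overlap and score limits, the list and the comparison group. GC content and transcription starts were planned but not computed, for lack of a genome of release 5.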

Additional observations from a re-analysis of the deposited data

How the results depend on the processing

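No direction against the autosomes changed under the alternatives run except that of width. Among clusters found in both replicates the width ratio reversed from 0.806 to 1.63, and the gap ratio went from 0.330 to 0.176. Against narrow X clusters near a wide one, the score difference was -0.0309 and the gap ratio 2.57, both reversed, the width ratio 0.689 and the difference in the share found in both -25.9 percentage points, in place of -46.3. With a distance over 2000 bp the shares in both and in neither were 19.3% and 53.4% and the gap ratio 0.298. Over 20000 bp left 502 members, with 13.7%, 60.2%, a width ratio of 0.765 and a gap ratio of 0.50. A width limit of 5000 bp gave 9.73%, 61.5%, 0.754 and 0.40. Coverage of 50% gave shares of 9.89% and 62.3%, and a tolerated gap of 500 bp 19.5% and 48.9%. The 50% of clusters with the highest score gave 20.7%, 52.0%, a width ratio of 0.614, a gap ratio of 0.151 and a difference of -76.1 points. Leaving out a replicate asks for 1 list in place of both: 30.0% to 30.7% were found and 69.3% to 70.0% not, with differences of -45.9 to -36.6 points. The rule within 1 replicate list gave 599 to 609 members, width ratios of 0.918 to 0.958, score differences of 0.173 to 0.277 and gap ratios of 0.482 to 0.512. Alternatives chosen after seeing the data were weighting autosome clusters to the members' widths (-25.8 points) or scores (-69.6 points), widths of 1301 bp or more (23.8% and 39.8%), and merging clusters under 500 bp apart, which gave 609 members, 15.9%, 55.3% and a gap ratio of 0.556. The differences in points under the other alternatives were not planned either. The cause of each shift was not tested. Depth is unknown, so clusters missed for lack of reads cannot be told apart from clusters without the mark. No paired analysis was possible because only lists of the ChIP group were used.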

Other observations

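Many isolated clusters had exactly the score of another combined cluster. This was so for 290 of the 950 (30.5%), for 20.9% of the narrow X clusters near a wide one, for 12.7% of the narrow autosome clusters and for 0 of the wide X clusters. The isolated clusters with a shared score had a median width of 1357 bp. Of the 290, 199 were found in neither replicate and 14 in both. Over all 950 members, 531 (55.9%) were found in neither and 158 (16.6%) in both. Of the 404 members from 1000 to 1500 bp, 88.1% were found in neither and 0 in both. Whether a shared score went with recovery at a given width was not tested.

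The comparison clusters on the autosomes were alike from arm to arm. The share found in both replicates ran from 62.1% on 3L to 64.1% on 3R, the median width from 2081 bp on 3L to 2117 bp on 3R, and the median score from 0.392 on 3L to 0.415 on 2R.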
